A study of Mus musculus with 2 samples.

Results

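Myb binding was examined at the genes of the GATA factors and their FOG cofactors, a set of 5 genes made up of Gata1, Gata2, Gata3, Zfpm1 (FOG1) and Zfpm2 (FOG2). A Myb peak was counted for a gene when its summit, the base of highest signal, lay in the gene body or within 100 kb of it in GENCODE vM21. This gave 46 of the 25793 peaks in the list, with 6 at Gata1, 17 at Gata2, 2 at Gata3, 19 at Zfpm1 and 2 at Zfpm2. Distances are given from the 5′ end of each gene, positive in the direction of transcription, on the mouse build mm10 (GRCm38). To identify Myb target genes and compare them with its gene expression data, the study performed ChIP-Seq on Lin- bone marrow cells of WT mice. Lin- cells are the fraction that remains after cells with markers of mature blood lineages have been depleted. In the methods of the paper, WT stands for mice with floxed Ep300 and no Cre, injected with poly(I:C). Chromatin was precipitated with an antibody against Myb or with rabbit IgG, and there was 1 library of each kind. The IgG library enters only as the background of the peak calls. A minority of other cells may be present in the Lin- fraction, and a peak list measures no expression, so the Lin- label could not be checked against cell markers.

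GATA factors are zinc finger proteins that bind the letters GATA in DNA. In blood, GATA2 maintains stem and progenitor cells, GATA1 drives red cells, megakaryocytes, mast cells and eosinophils, and GATA3 directs T cells. FOG proteins act through GATA factors, to which they bind, and bring in corepressors such as NuRD and CtBP. Distal enhancers of Gata2 are known by their distance in kilobases from its upstream promoter. The exchange of GATA2 for GATA1 at several of them as red cells mature is called the GATA switch. Myb is a transcription factor of immature blood cells and binds DNA sites built on the letters AAC.

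The sequences around 7 summits are shown because these peaks are the strongest of Gata1, Gata2 and Zfpm1 or lie at 3 of the known Gata2 elements, or, for the peak at +2.57 kb, because it is among the widest. Each sequence holds 101 bases of mm10 centered on the summit and is written 5′ to 3′ on the strand of the gene. Capitals mark Myb hexamers, which are AAC with C or T before it and GG or TG after it, and GATA hexamers, which are GATA with A or T before it and A or G after it. Both were searched on both strands.
Gata2 −27.7 kb, chr6:88166190-88166290, plus strand: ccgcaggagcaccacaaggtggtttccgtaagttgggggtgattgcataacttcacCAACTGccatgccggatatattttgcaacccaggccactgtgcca
Gata2 −76.8 kb, chr6:88116999-88117099, plus strand: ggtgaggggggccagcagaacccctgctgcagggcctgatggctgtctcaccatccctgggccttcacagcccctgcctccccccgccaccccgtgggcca
Gata2 −3.08 kb, chr6:88190763-88190863, plus strand: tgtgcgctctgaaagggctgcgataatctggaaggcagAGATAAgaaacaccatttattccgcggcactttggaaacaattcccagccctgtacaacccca
Gata2 +9.29 kb, chr6:88203131-88203231, plus strand: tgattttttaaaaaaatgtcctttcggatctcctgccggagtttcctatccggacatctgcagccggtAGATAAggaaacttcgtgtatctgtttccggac
Gata1 +6.71 kb, chrX:7971306-7971406, minus strand: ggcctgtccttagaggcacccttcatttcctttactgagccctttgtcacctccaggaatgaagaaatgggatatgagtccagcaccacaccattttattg
Zfpm1 +2.57 kb, chr8:122284660-122284760, plus strand: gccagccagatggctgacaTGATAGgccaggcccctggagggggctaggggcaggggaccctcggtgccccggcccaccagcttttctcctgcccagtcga
Zfpm1 +27.4 kb, chr8:122309476-122309576, plus strand: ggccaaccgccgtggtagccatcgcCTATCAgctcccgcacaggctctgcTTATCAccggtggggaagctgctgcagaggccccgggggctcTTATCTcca

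The binding of Myb was uneven across the 5 genes, with many peaks at Gata2 and Zfpm1 and few at Gata3 and Zfpm2. All 5 genes had at least 1 peak, as did 76.6% of the 21938 protein-coding genes, so the presence of a peak did not set them apart. The median protein-coding gene had 4 peaks, with quartiles of 1 and 8. As many peaks as Zfpm1, or more, were found at 3.77% of protein-coding genes, and as many as Gata2 at 5.52%. For Gata1 this share was 38.8%, and for Gata3 and Zfpm2 it was 68.0%. Genes differ in length, so the number was also set against the length searched. It came to 7.98 peaks per 100 kb at Gata2, 7.45 at Zfpm1, 2.74 at Gata1, 0.859 at Gata3 and 0.308 at Zfpm2, beside a median of 1.50 over protein-coding genes. Zfpm2 is by far the longest of the genes at 449.6 kb, and none of its peaks lay inside it.

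**Figure D1:**
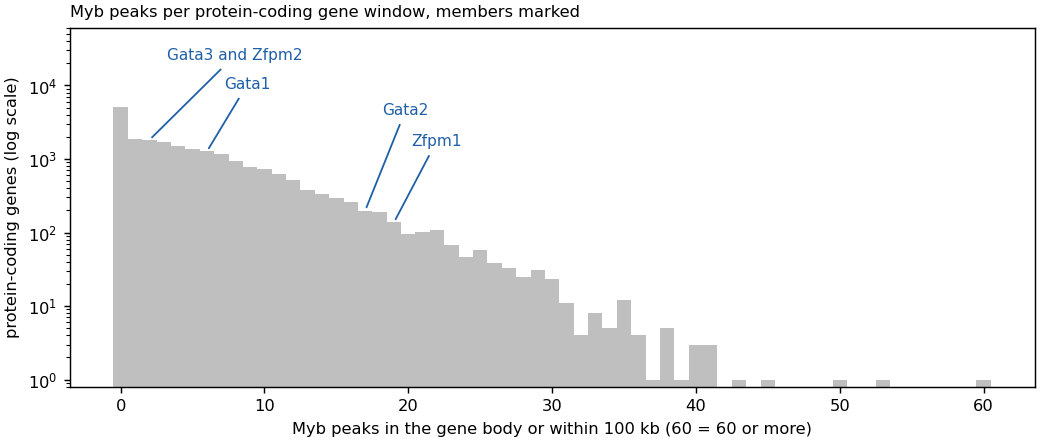
Number of protein-coding genes (vertical axis, log scale) with each number of Myb peaks in the gene body or within 100 kb (horizontal axis), with the 5 GATA and FOG genes marked. Gata2 and Zfpm1, with 17 and 19 peaks, lie in the right-hand tail, while Gata3 and Zfpm2, with 2 each, lie below the median of 4.

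Gata1 lies on chromosome X, where 41.7% of the 948 protein-coding genes had a peak and the median was 0. As many peaks as Gata1 or more were found at 7.59% of the genes on chromosome X. Against their own chromosomes the shares were 6.83% for Gata2, 64.2% for Gata3, 5.67% for Zfpm1 and 76.9% for Zfpm2. Inside the gene bodies there were 22 peaks, with 12 in Zfpm1, 6 in Gata2, and 2 in each of Gata1 and Gata3. At least 1 peak in the body was found for 35.4% of protein-coding genes. As many in the body as in Zfpm1 were found for 0.315% of genes, and as many as in Gata2 for 2.12%. These shares are not adjusted for gene length, which was 55.1 kb for Zfpm1 and 13.1 kb for Gata2.

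The 100 kb windows also hold other genes, namely 12 protein-coding neighbors for Gata1, 3 each for Gata2 and Gata3, 6 for Zfpm1 and 0 for Zfpm2. The nearest protein-coding start was that of the gene itself for 32 of the 46 peaks, with 16 at Zfpm1, 11 at Gata2, 3 at Gata1, 1 at Gata3 and 1 at Zfpm2. The other 14 peaks were nearer to the start of another gene. Which gene a distal peak acts on was not tested. Peaks of 1 locus share their surroundings and are not replicates of each other.

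As a group, the 46 peaks were close in strength to the whole list. Fold enrichment, which compares the Myb signal of a summit with the IgG background as a ratio, had a median of 4.25 at these peaks and 4.51 over all peaks. Reads behind the summit, worked out from both the fold enrichment and the p-value, had a median of 18.5 at these peaks and 18 over all peaks. A fold enrichment above 5 was found at 19 of the 46 peaks, beside 39.6% of the list. A q-value above 0.05 was found at 4 of the 46, beside 7.24%. Of the 46, 21 reached a −log10 q-value of 5, beside 43.1% of the list. The width was over 1 kb for 9 of the 46, beside 19.6%. The peaks differed more in base composition, with a median GC content of 57.5% and 5.5 CpG within 100 bp of the summit, beside 48.3% and 3 over all peaks. By gene, the median GC content was 54.0% at Gata1, 58.2% at both Gata2 and Zfpm1, and 53.7% at Gata3. Zfpm2 went the other way, with 32.3% and 2.5 CpG. Intervals given on reads are exact Poisson 95% intervals. Those on fold enrichment carry the same read limits over with the IgG background held fixed, so they leave out its counting error. Both kinds cover counting error of the Myb reads only, since there was no replicate library, and no test between conditions was possible. In a bulk sample, fewer cells with Myb bound and less Myb per cell cannot be told apart.

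**Figure D2:**
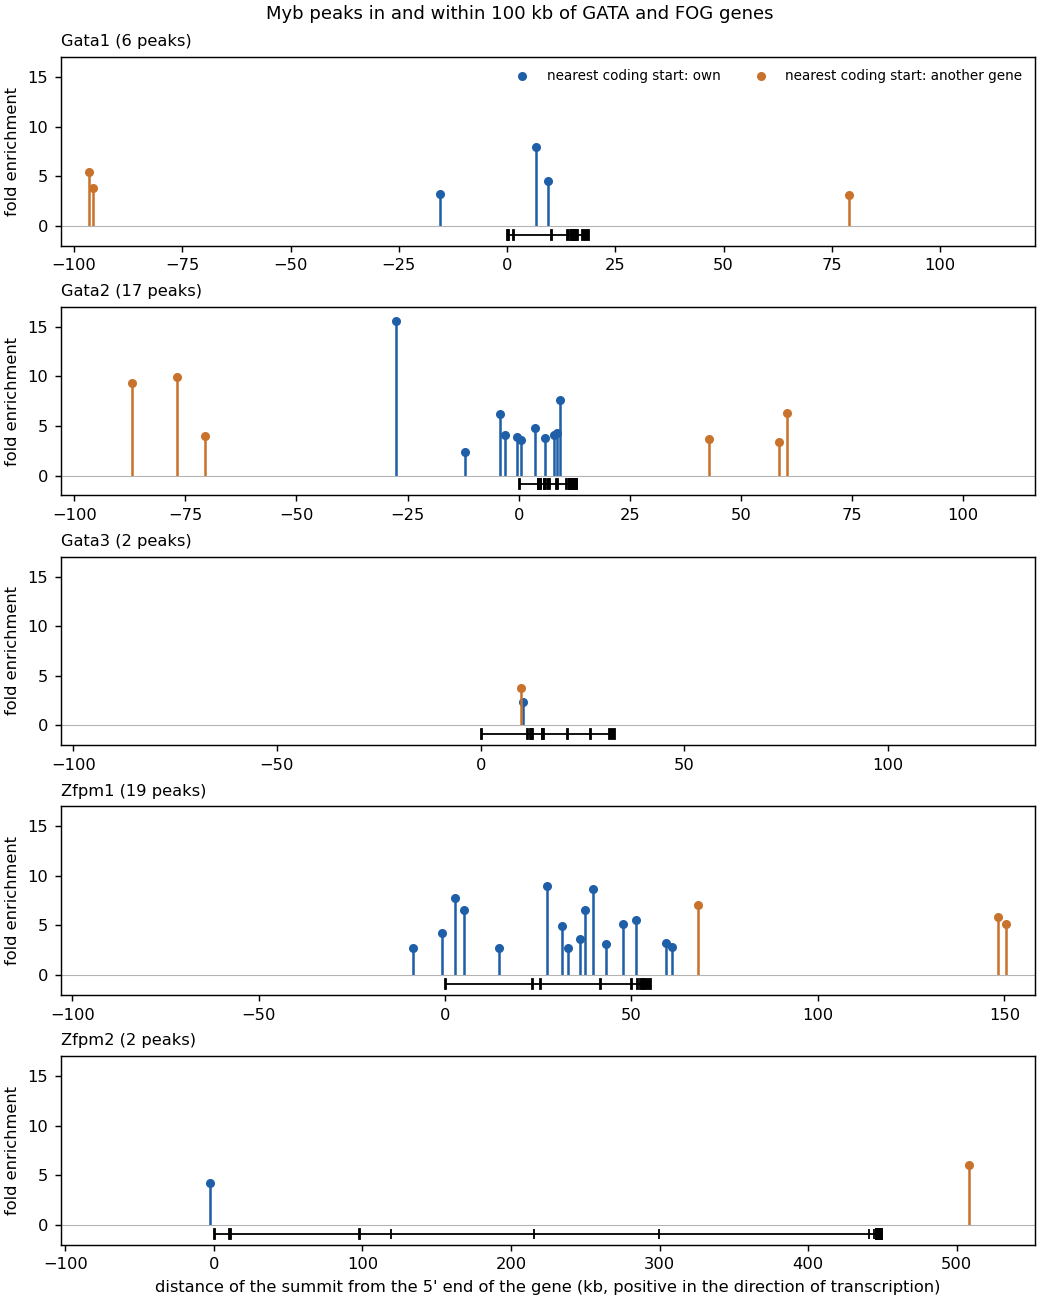
Fold enrichment of each Myb peak (vertical axis) by the distance of its summit from the 5′ end of the gene in kilobases (horizontal axis) for the 5 genes, with exons as black boxes below 0. Blue stems mark peaks whose nearest protein-coding start is that of the gene itself and orange stems the rest, and the tallest stem is the Gata2 peak at −27.7 kb with a fold enrichment of 15.6.

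Gata1, the master regulator of red cells and megakaryocytes (ENSMUSG00000031162.14, chrX:7959260-7978071, minus strand), had 6 peaks with 99 reads in all. The strongest lay in intron 3 of its longest annotated transcript, at +6.71 kb, with a fold enrichment of 7.90 and 25 reads (95% interval 16.2 to 36.9). That distance is counted from the most upstream annotated start. The shorter transcript Gata1-201 starts 10161 bp further downstream, and from there the same summit lay at −3.45 kb. The known upstream hematopoietic enhancer of Gata1, named G1HE, is placed at about −3.5 kb from the start used in blood cells. The summit was 54 bp from that distance when counted from Gata1-201, and 10215 bp from it when counted from the most upstream start.

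The sequence printed for this peak holds no Myb or GATA hexamer within 50 bp of the summit. The whole peak, 771 bp wide, held 1 Myb hexamer 263 bp downstream of the summit and 2 GATA hexamers, at −148 and −356 bp from it. The next peak of Gata1, at +9.53 kb, lay 631 bp upstream of the start of Gata1-201 and had a fold enrichment of 4.47 from 13 reads (6.92 to 22.2). It overlapped the RefSeq promoter window of the gene, which lies mostly upstream of the start of that transcript. Its summit window held neither hexamer, but 2 GATA hexamers on opposite strands, with 3 bases between them, lay just downstream and are shown in capitals. A wider class, any 2 GATA hexamers that start within 20 bases of each other, was found within 100 bp of the summit in 1 of the 46 peaks, beside 2.00% of all peaks. A palindromic double GATA site is known in the Gata1 promoter, and mice without it lack eosinophils.
Gata1 paired hexamers, chrX:7968441-7968460, minus strand: catcTGATAAgacTTATCTg

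The remaining 4 peaks of Gata1 were weaker or lay at other genes. The peak at −15.4 kb had a fold enrichment of 3.15 with 11 reads, a q-value above 0.05 and a GATA hexamer, and 55.2% of its bases within 100 bp of the summit lay in repeats. It was the only peak of the 46 with over 50% in repeats, beside 4.45% of all peaks. The peaks at −96.5 and −95.7 kb had fold enrichments of 5.40 and 3.84 with 16 and 11 reads, and lay 20 and 501 bp from the start of Suv39h1, a histone methyltransferase gene. The peak at +79.0 kb had a fold enrichment of 3.12 with 23 reads and lay 86 bp from the start of Pqbp1. It was the only peak of the 46 with both a Myb and a GATA hexamer within 50 bp of its summit, beside 1032 of all 25793 peaks. Inside the gene, then, Myb peaks were found only at +6.71 and +9.53 kb, and their read intervals overlapped.

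Gata2, the factor of stem and progenitor cells (ENSMUSG00000015053.14, chr6:88193891-88207032, plus strand), had 17 peaks with 429 reads in all. There were 8 upstream, 6 in the gene body and 3 downstream. The strongest was at −27.7 kb, in intergenic sequence, with a fold enrichment of 15.6 (12.4 to 19.3) and 82 reads (65.2 to 101.8). It ranked 182 in the whole list, above 99.3% of the peaks. It was also the strongest of the 46, and its read interval did not overlap that of any other Gata2 peak. The fold intervals of this peak and of the peak at −76.8 kb did overlap. Of the peaks printed above, this is the only one with a Myb hexamer, CAACTG, with its A before the C lying 8 bp downstream of the summit.

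Far upstream, 3 peaks lay nearer to the start of Rpn1, a subunit of the oligosaccharyltransferase, than to that of Gata2. The peak at −76.8 kb had a fold enrichment of 9.92 (7.18 to 13.4), from 40 reads (28.6 to 54.5). Its summit was 158 bp from the named distance of the −77 kb enhancer, which is known to drive Gata2 in myeloid progenitors. No Myb or GATA hexamer lay within 50 bp of the summit, but the peak, 1274 bp wide, held 4 GATA and 2 Myb hexamers. The peak at −87.0 kb had a fold enrichment of 9.29 (6.89 to 12.3) with 47 reads and a GATA hexamer, TGATAG. These peaks had nearly the same strength, with overlapping intervals, and lay above 95.4% and 94.3% of the list.

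Around the gene itself, 9 peaks fell within 13.5 kb, from −4.19 to +9.29 kb. A stretch of 15 kb with at least as many summits starts at 0.446% of all peaks. That share is for a single starting peak, whereas this stretch is the densest of the Gata2 locus. The length of 15 kb was not among the planned settings, so no rarity is read from the share. The peak at −4.19 kb had a fold enrichment of 6.23 (4.07 to 9.18) with 23 reads and was 291 bp from the named −3.9 kb site, inside the noncoding gene model Gm38708. The peak at −3.08 kb had a fold enrichment of 4.13 (2.42 to 6.69) with 14 reads and was 278 bp from the −2.8 kb site. Both sites are known as GATA switch sites. The printed sequence at −3.08 kb held the GATA hexamer AGATAA, whereas at −4.19 kb no Myb or GATA hexamer lay within 50 bp of the summit, and the nearest GATA hexamers were 104 and 125 bp downstream. No summit lay within 1 kb of another such site, at −1.8 kb, for which the nearest was 1278 bp away. In all, 4 of 6 named elements of Gata2 and Gata1 had a summit within 1 kb by the distance from the 5′ end, and 5 of 6 when distances from every annotated transcript start were allowed. Between the summits at −4.19 and +9.29 kb, 82.7% of all positions lie within 1 kb of a summit, and in the whole Gata2 window 13.6% do. A summit within 1 kb of the named sites close to the gene was therefore the common case, and nothing is read from the count.

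The most abundant signal inside the gene was at +9.29 kb, in intron 4. This peak had a fold enrichment of 7.59 (5.65 to 9.99), from 48 reads (35.4 to 63.6), and its summit was 210 bp from the named +9.5 kb distance. The +9.5 element is an intronic enhancer known to be needed for the emergence of stem cells in the embryo, and it carries an E-box and a GATA site with 8 bases between them. The same arrangement of letters, CATCTG followed after 8 bases by AGATAA, started 4 bp downstream of the summit. It is shown because E-box and GATA composites of the form CANNTG, 8 bases and a GATA hexamer were present within 50 bp of the summit in 96 of all peaks, or 0.372%, and in 1 of the 46.
Gata2 composite, chr6:88203185-88203204, plus strand: CATCTGcagccggtAGATAA

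Other peaks in and beyond the Gata2 gene were weaker than this. In intron 1, the peak at +3.74 kb had a fold enrichment of 4.78 with 18 reads and a GATA hexamer. In a coding exon, the peak at +8.60 kb had a fold enrichment of 4.29 with 21 reads. The promoter of the longest transcript was flanked by a pair of peaks at −0.283 and +0.504 kb, with fold enrichments of 3.92 and 3.55 and 14 and 15 reads, and this pair was picked out after its values had been seen. Downstream, the strongest peak was at +60.4 kb in an untranslated exon of Dnajb8, with a fold enrichment of 6.33 and 22 reads. The 6 other Gata2 peaks, of which 1 has a q-value above 0.05, had fold enrichments between 2.35 and 4.04 and 12 to 17 reads.

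**Figure D3:**
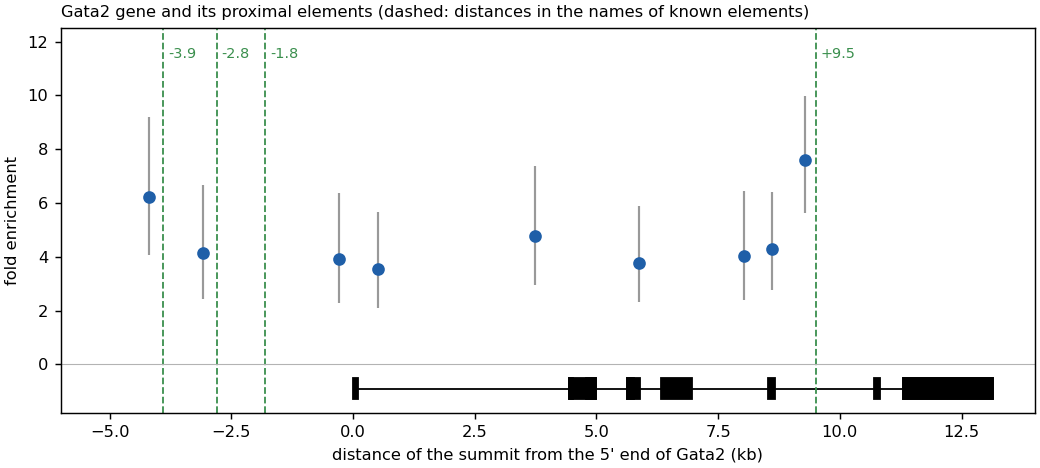
Fold enrichment of the 9 Myb peaks nearest to Gata2 (points, vertical axis) by distance from the 5′ end of the gene in kilobases (horizontal axis), with exons as black boxes and dashed lines at the distances in the names of known elements. Bars are exact Poisson 95% intervals of the reads, turned into fold enrichment with the background held fixed. Summits lay beside the lines at −3.9, −2.8 and +9.5 kb and not at the line at −1.8 kb.

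Gata3, the T cell factor (ENSMUSG00000015619.10, chr2:9857078-9890034, minus strand), had 2 weak peaks, both inside the gene and 662 bp apart. The peak at +10.4 kb had a fold enrichment of 2.35 (1.38 to 3.81) with 14 reads and a q-value above 0.05. It lay 987 bp upstream of the start of Gata3-201, the inner of the coding transcript starts. The peak at +9.79 kb had a fold enrichment of 3.73 (2.06 to 6.36) with 11 reads and lay nearest to the start of the gene model 4930412O13Rik, at 1003 bp. Neither had a Myb or GATA hexamer within 50 bp, and neither passed a −log10 q-value of 2. No peak overlapped the RefSeq promoter window of Gata3. The Gata3 peaks had 25 reads in all, within counting error of the 33 at Zfpm2.

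Zfpm1 encodes FOG1, the GATA1 cofactor needed for red cells and megakaryocytes (ENSMUSG00000049577.15, chr8:122282141-122337251, plus strand). It had 19 peaks with 488 reads in all, and 12 of them lay inside the gene, all in introns. This was the most of the 5 genes, but the order of Zfpm1 and Gata2 turned at a −log10 q-value of at least 2, which left 13 and 15 peaks, and they were level at 25 each within 200 kb. Zfpm1 stayed ahead at a −log10 q-value of at least 5, with 12 and 6 peaks, and at a q-value of at most 0.05, with 18 and 16. It was also ahead within 10 kb, with 16 and 9, and within 50 kb, with 17 and 14. The Zfpm1 peaks were spread over introns 1, 3, 4 and 5 rather than gathered at the promoter. The strongest was at +27.4 kb in intron 3, with a fold enrichment of 8.97 (6.70 to 11.8) and 49 reads (36.3 to 64.8). Next was the peak at +39.6 kb in the same intron, with a fold enrichment of 8.66 (6.58 to 11.2) and 55 reads (41.4 to 71.6). The peak at +2.57 kb in intron 1 had a fold enrichment of 7.74 (5.78 to 10.2) and 49 reads. Intervals of these 3 peaks overlapped, so they cannot be ranked.

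The Zfpm1 peaks had a median width of 635 bp, beside 577 bp over all peaks. The widest were the peak at +39.6 kb, with 3490 bp, and the peak at +2.57 kb, with 3038 bp. Peaks wider than 3 kb made up 0.872% of the list. Also in intron 1, the peak at +5.05 kb had a fold enrichment of 6.52 with 27 reads. In intron 3, the peak at +37.5 kb had a fold enrichment of 6.60 with 29 reads. In intron 5, the peak at +51.2 kb had a fold enrichment of 5.58 with 30 reads. These are among the strongest by choice, and of the 12 peaks inside Zfpm1, 4 had a fold enrichment below the median of the list.

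Beyond the 3′ end, the peak at +67.8 kb had a fold enrichment of 7.09 with 30 reads and was nearest to the start of Trhr2. The peak at +148.3 kb had a fold enrichment of 5.83 with 24 reads and was nearest to Cyba, which encodes a subunit of the phagocyte NADPH oxidase. The remaining 11 Zfpm1 peaks had fold enrichments between 2.73 and 5.19 and 12 to 26 reads. A single peak overlapped the promoter window of Zfpm1, with its summit at −0.791 kb, a fold enrichment of 4.20 and 26 reads. It was picked out after its values had been seen, and its fold enrichment was below the median of the list.

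**Figure D4:**
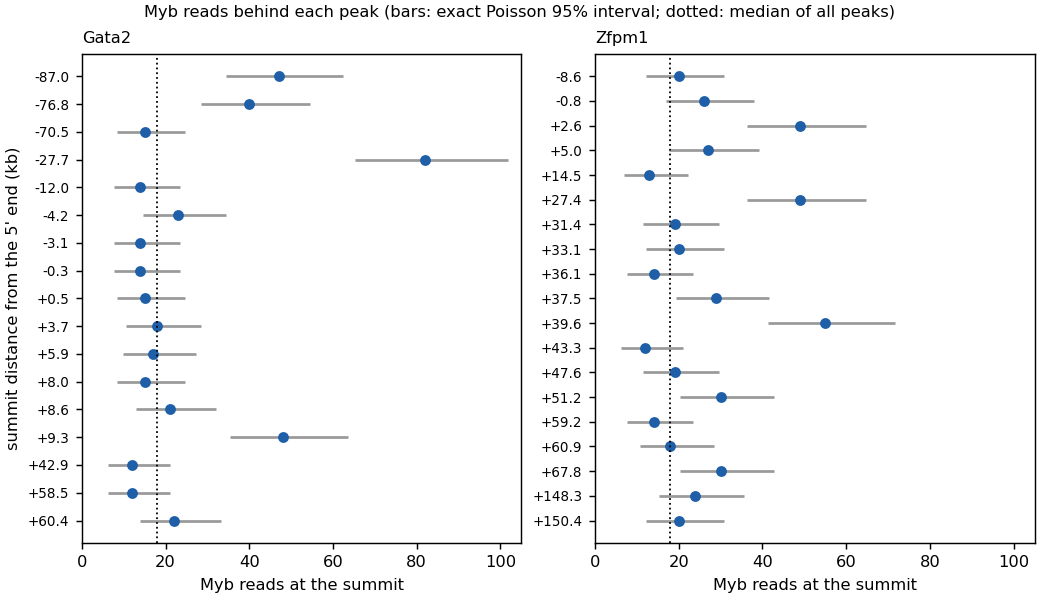
Myb reads at the summit (horizontal axis) of each peak of Gata2 (left) and Zfpm1 (right), in order of distance from the 5′ end in kilobases (vertical axis), with exact Poisson 95% intervals as bars and the median of all peaks, 18 reads, as a dotted line. The highest Gata2 peak, at −27.7 kb, stands at 82 reads and the next 3 at 40 to 48 reads, and the highest 3 Zfpm1 peaks stand at 49 to 55 reads.

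Zfpm2 encodes FOG2, a cofactor best known from heart and gonad (ENSMUSG00000022306.9, chr15:40655035-41104592, plus strand). It had 2 peaks with 33 reads in all and none in its body. The peak at −2.46 kb had a fold enrichment of 4.18 (2.49 to 6.68) with 15 reads, and no Myb or GATA hexamer lay within 50 bp of its summit. The whole peak, 227 bp wide, held 2 Myb hexamers, 113 and 150 bp downstream of the summit. The other peak lay 59.1 kb beyond the 3′ end, at +508.7 kb, with a fold enrichment of 6.03 (3.74 to 9.29) and 18 reads. It held 3 Myb hexamers, all over 100 bp from the summit, and its nearest protein-coding start was that of Oxr1, 283795 bp away. Neither FOG2 peak therefore touched the gene.

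Motifs of Myb itself were not frequent at these summits. A Myb hexamer lay within 50 bp of 5 of the 46 summits (10.9%, exact binomial 95% interval 3.62% to 23.6%), beside 16.7% of all peaks. Of these, 4 were at Gata2 and 1 at Gata1, and none of the 19 Zfpm1 summits had one. A GATA hexamer lay within 50 bp of 10 of the 46 summits (21.7%, 10.9% to 36.4%), beside 20.1% of all peaks. These were 4 at Gata2, 4 at Zfpm1 and 2 at Gata1. These intervals treat each peak as an independent draw, although peaks of 1 locus share their surroundings. They are descriptions, and no difference from the share over all peaks is read from them. Absence of a hexamer says only that its letters are not in the window.

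Over whole peaks the Zfpm1 locus held more GATA hexamers for its length than the other loci. There were 53 in 17.4 kb of peak sequence, or 3.05 per kb, beside 2.24 at Gata2, 1.58 at Gata1, none at Gata3 and Zfpm2, and 2.05 over all peaks. Myb hexamers were at 0.977 per kb at Zfpm1, 1.52 at Gata2, 1.58 at Gata1, 0.940 at Gata3 and 4.78 at Zfpm2, beside 1.48 over all peaks. The Zfpm2 value rests on 5 hexamers in 1.05 kb. The wide peaks at +39.6 and +2.57 kb held 11 GATA hexamers each, and the printed sequence of the peak at +27.4 kb held 3. These densities are descriptions without a test, since the peaks were not sampled independently.

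The motifs of other blood factors were counted in the same windows. RUNX hexamers (TGNGGT, with C or T at N) lay at 10 of the 46 summits (21.7%), beside 12.2% of all peaks. ETS hexamers (NGGAAG, with A or C at N) lay at 5 of the 46 (10.9%), beside 20.4%. Exact binomial intervals, as for Myb and GATA, were 10.9% to 36.4% for RUNX and 3.62% to 23.6% for ETS. They too treat peaks of 1 locus as independent, so no difference from the share over all peaks is read from them. Both motifs were added after the data had been seen. Among the promoter windows, those of Gata1, Gata2 and Zfpm1 overlapped a Myb peak, and Gata2 has a second window, 88198414 to 88198713 on chromosome 6, that overlapped none. None of them held a Myb hexamer, and the Gata3 window held 1 GATA hexamer. Over 32851 RefSeq promoters of mm10, 28.3% held a Myb and 29.8% a GATA hexamer. Zfpm2 was not matched.

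Peaks just inside and just outside the 100 kb limit were compared as a description. At Gata2, the outermost peak inside was 87.0 kb from the gene, with a fold enrichment of 9.29, and the nearest outside was at 109.6 kb with 2.75. At Zfpm1 these were 95.3 kb with 5.18 and 107.0 kb with 4.67. At Gata1 they were 96.5 kb with 5.40 and 119.0 kb with 5.46, the latter near Was. At Zfpm2 the inner was 59.1 kb with 6.03 and the outer 331.7 kb with 4.15. At Gata3 both peaks were in the gene and the nearest outside was at 158.7 kb with 2.01. Thus Gata1 and Zfpm1 had neighbors of like strength just beyond the limit, whereas the Gata2 neighbor was weaker.

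Genes that work with GATA and FOG proteins were counted in the same way. All 28 had at least 1 peak, beside 76.6% of protein-coding genes, and 23 had a peak in the body, beside 35.4% of protein-coding genes. The lists differed in number of peaks. The Tal1 complex, which binds E-box and GATA composites (Tal1, Lyl1, Lmo2, Ldb1 and Tcf3), had a median of 15 peaks per gene and a range from 7 to 22, with the most at Lyl1. Erythroid and megakaryocytic partners (Klf1, Gfi1b, Nfe2, Fli1 and Runx1) had a median of 19 and a range from 12 to 28, with the most at Klf1, which encodes a red cell activator. Only 1 of the 28 peaks of Klf1 and 2 of the 22 of Lyl1 lay in the gene body. At Runx1 16 of 19 did, and at Fli1 11 of 12. Which gene the peaks outside a body act on was not tested.

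The NuRD and CtBP corepressor genes, 14 in all, had a median of 10 peaks and a range from 1 to 22, with the most at Mta2. The remaining GATA genes (Gata4, Gata5, Gata6 and Trps1), which mostly act outside blood, had a median of 3 and a range from 1 to 5, with the most at Trps1. In the gene body lay 2 of the 22 peaks of Mta2 and 4 of the 5 of Trps1. The ranges of the lists overlapped. The numbers at Gata2 (17) and Zfpm1 (19) fell in the ranges of the erythroid, Tal1 and corepressor lists, that at Gata1 (6) only in the range of the corepressor list, and that at Gata3 and Zfpm2 (2) in the ranges of the other GATA genes and the corepressors. Genes can share peaks where their windows meet, also between lists, as for Tcf3 of the Tal1 list and Mbd3 of the corepressor list, and the medians are descriptions without a test.

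**Figure D5:**
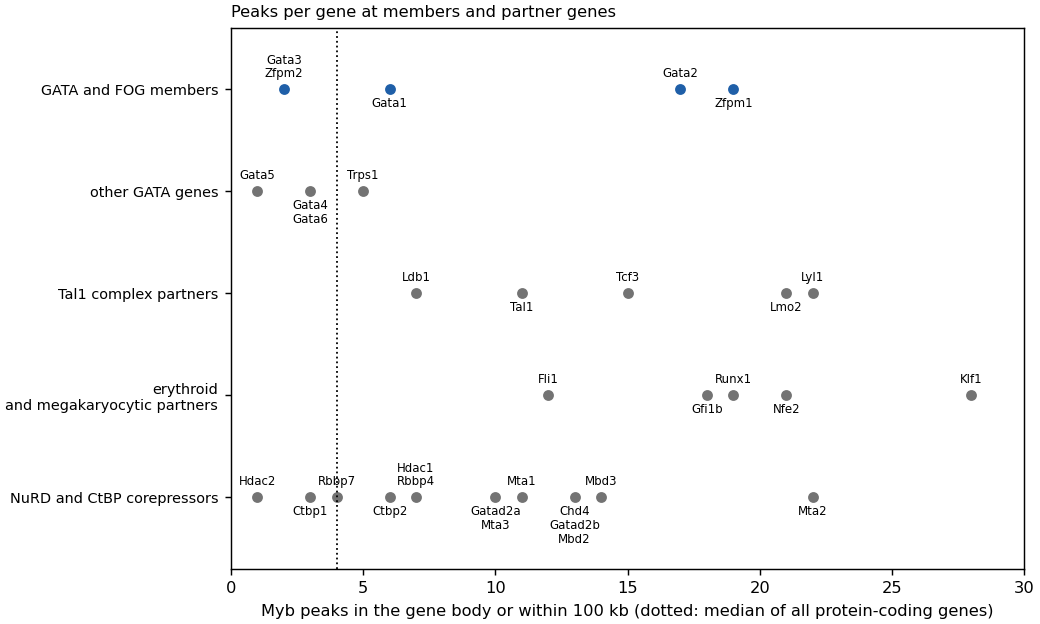
Number of Myb peaks in the gene body or within 100 kb (horizontal axis) for the 5 GATA and FOG genes in blue and for 28 partner genes in gray, grouped by list (vertical axis), with the median of protein-coding genes, 4, as a dotted line. All genes of the Tal1 and erythroid lists lie above the median, and 3 of the 4 other GATA genes lie below it.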

How the data were processed

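ChIP-Seq of Myb was performed on Lin- bone marrow cells of WT mice, with 1 Myb and 1 IgG library grouped by their titles. Adapter trimming (cutadapt 1.15), alignment to mm10 (BWA 0.7.13), removal of duplicates (Picard) and calling of narrow peaks against IgG (MACS2 2.1.1.20160309) were done by the authors (versions from the submitters' processing notes), keeping peaks found in pseudo-replicates, which are subsets of 1 library. The paper gives a q-value threshold of 0.05 for these calls, yet 7.24% of the peaks in the list have a q-value above 0.05. In the deposited list, fold enrichment is the ratio of Myb signal at the summit to the IgG background, each with 1 added. The lowest background, 1.46, was common to 12.4% of all peaks, so there the ratio rests on a shared value. P-values and q-values are −log10 values computed by the authors, and the deposited score is 10 times the −log10 p-value rounded down. The library depth is not in the list. Reads behind each summit were recovered with a pileup scale of 0.769, which gave whole reads in 100% of peaks. They ran from 7 to 130, and their exact Poisson 95% intervals give the precision.

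Summits were assigned to GENCODE vM21 genes with python 3.11.15, pandas 2.3.3, numpy 2.4.6, scipy 1.17.1 and pysam 0.24.0, and figures were drawn with matplotlib 3.10.9. The readthrough model Gm20388, which spans Zfpm1, was left out of the labels of genes and features at the summits. It was not removed from the gene counts or from the search for nearest starts. Every peak was given for a gene with 8 or fewer, and otherwise the 8 of highest fold enrichment and those within 1 kb of a known element. From each partner list the gene with the most peaks was named. Known elements come from background knowledge. The genes, lists and elements were chosen with earlier results of these data known, and RUNX, ETS, composite and paired GATA motifs were added after the data had been seen. Alternatives changed the q-value threshold, the window, the assignment and the motif. Scripts were tested on simulated data. Promoter windows are from RefSeq (GRCm38). With 1 library per group, no test between samples was made.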

Additional observations from a re-analysis of the deposited data

How the results depend on the processing

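The number of peaks at the 5 genes was 46, and became 21 at a −log10 q-value of at least 5, 30 with a window of 10 kb and 74 with a window of 200 kb, which takes in further peaks. Fewer peaks, or a narrower or wider window, give these differences by construction. The share of protein-coding genes with a peak was 76.6%, and became 75.3%, 65.9% and 76.0% at a −log10 q-value of at least 2, of at least 5 and at a q-value of at most 0.05. It was 52.6%, 68.7% and 83.4% with windows of 10, 50 and 200 kb, and 45.2% when a peak was given only to the gene of the nearest start. At a −log10 q-value of at least 2, Gata3 kept 0 peaks. The share of the 46 summits with a GATA motif was 10.9% within 25 bp, 41.3% within 100 bp and 50% for the letters GATA alone, beside 10.8%, 34.8% and 36.3% of all peaks. The share with a Myb motif was 8.70% within 25 bp, 21.7% within 100 bp and 45.7% for AACNG, beside 8.68%, 30.0% and 54.3% of all peaks. Within 25 bp the Myb share was thus close to that of all peaks.

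A single library gives no estimate of variation between mice, and leaving out a library leaves no data. No paired analysis was possible because there is 1 Myb library and the IgG library enters only as background. At 7 to 130 reads per summit, differences between weak peaks are within counting error.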
